A study of Homo sapiens with 6 samples.

Results

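The 5 G protein beta subunit genes, GNB1, GNB2, GNB3, GNB4 and GNB5, were followed in L428 cells, a long-established Hodgkin lymphoma line, that had received a locked nucleic acid (LNA) directed at miR-9, a microRNA, or a scrambled LNA. Every probe set annotated to exactly 1 of these genes was taken, which gave 13 of the 54613 probe sets that are not array controls: 3 for GNB1, 1 for GNB2, 1 for GNB3, 3 for GNB4 and 5 for GNB5. The family was chosen because GNB2 had been among the genes of smallest p in the lower direction in this same comparison, so its values are a description. Where GNB2 enters a count of calls, that choice had fixed its call, and nothing is read from it. The groups were 3 samples of L428 with the miR-9 LNA and 3 samples of L428 with the scrambled LNA. All 6 were nucleofected, and total RNA was taken 9 h later and hybridized to 1 Affymetrix HG-U133 Plus 2.0 array each. The labels do not say whether the samples were separate cultures, so a p-value here measures the spread between these samples, which may be technical. The line stands for a single tumour, and the values describe mRNA at a single time.

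A heterotrimeric G protein carries a signal from a receptor in the plasma membrane to enzymes and channels inside the cell. Its alpha subunit binds GTP, while a beta subunit, folded as a propeller of WD repeats, is held tightly to a small gamma subunit. Once the receptor has acted, alpha and the beta-gamma pair separate, and each regulates effectors, among them phospholipase C beta, phosphoinositide 3-kinase gamma and receptor kinases. GNB1 to GNB4 encode closely related beta subunits, whereas GNB5 is more distant and pairs with regulators of G protein signalling (RGS proteins) of the R7 group. In lymphocytes, chemokine receptors signal through such complexes.

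The 5p form of miR-9 is shown first, as RefSeq gives it for GRCh38.p14. The sample titles name miR9 without a strand. Capitals mark the seed, bases 2 to 8, which pairs with target mRNAs.
hsa-miR-9-5p: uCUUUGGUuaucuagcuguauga
It is encoded at MIR9-1 (chr1:156420392-156420414, minus strand), MIR9-2 (chr5:88666902-88666924, minus strand) and MIR9-3 (chr15:89368032-89368054, plus strand). Matches to this seed in the mRNAs of the beta subunits were not analysed here, and the level of miR-9 itself was not read.

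The values are log2 expression. Array medians lay between 7.10 and 7.15. Scrambled replicate 1 stood apart: its 90th percentile was 9.29, against 9.46 to 9.58 on the other arrays, and the bacterial spike-in dap read 10.05 on it and 7.97 to 8.55 on the others. Differences of beta subunits and of the pathway genes named that this array moved by over 1.5 times are also given without it. All 10 markers listed for Hodgkin lines, TNFRSF8 (CD30) and CCL17 among them, lay above the level filter described next, as did 3 of 6 B cell genes, and 6 of 7 T and NK cell markers and 3 of 4 myeloid markers lay below it. All 5 fibroblast and endothelial markers read lay above the filter, with a summed level of 36.9 to 37.1 with the miR-9 LNA and 37.0 to 37.4 with the scrambled LNA. The filter is a median, so passing it does not show that a gene was expressed. COL1A2, DCN, PECAM1 and VWF had group means of 7.08 to 7.48, close to the filter, and COL1A1 of 8.14 and 8.18. The part of these markers in the results was not tested. The tested probe sets were the 27307 with a mean over the 6 arrays of at least 7.11, the median of all probe sets. Of the 13 beta subunit probe sets, 11 were tested, and GNB4 223487_x_at and GNB5 242404_at lay below the filter. A difference is always miR-9 LNA minus scrambled LNA, with the standard error from limma, and the error of a group mean is the SD over 3 arrays.

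No beta subunit probe set passed a limma adjusted p of 0.05. GNB2, which encodes a widely expressed beta subunit and was chosen for its low value, read lower on every miR-9 LNA array than on every scrambled array. GNB4 read higher at its brightest probe set on every miR-9 LNA array than on every scrambled array. So did 18.1% of all tested probe sets, and the GNB4 groups overlapped after quantile normalization. GNB1 gave differences of opposite sign at its 3 probe sets, and the 95% intervals of GNB3 and GNB5 held 0 at every probe set. The plot of values by array shows all 13 probe sets.

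**Figure D1:**
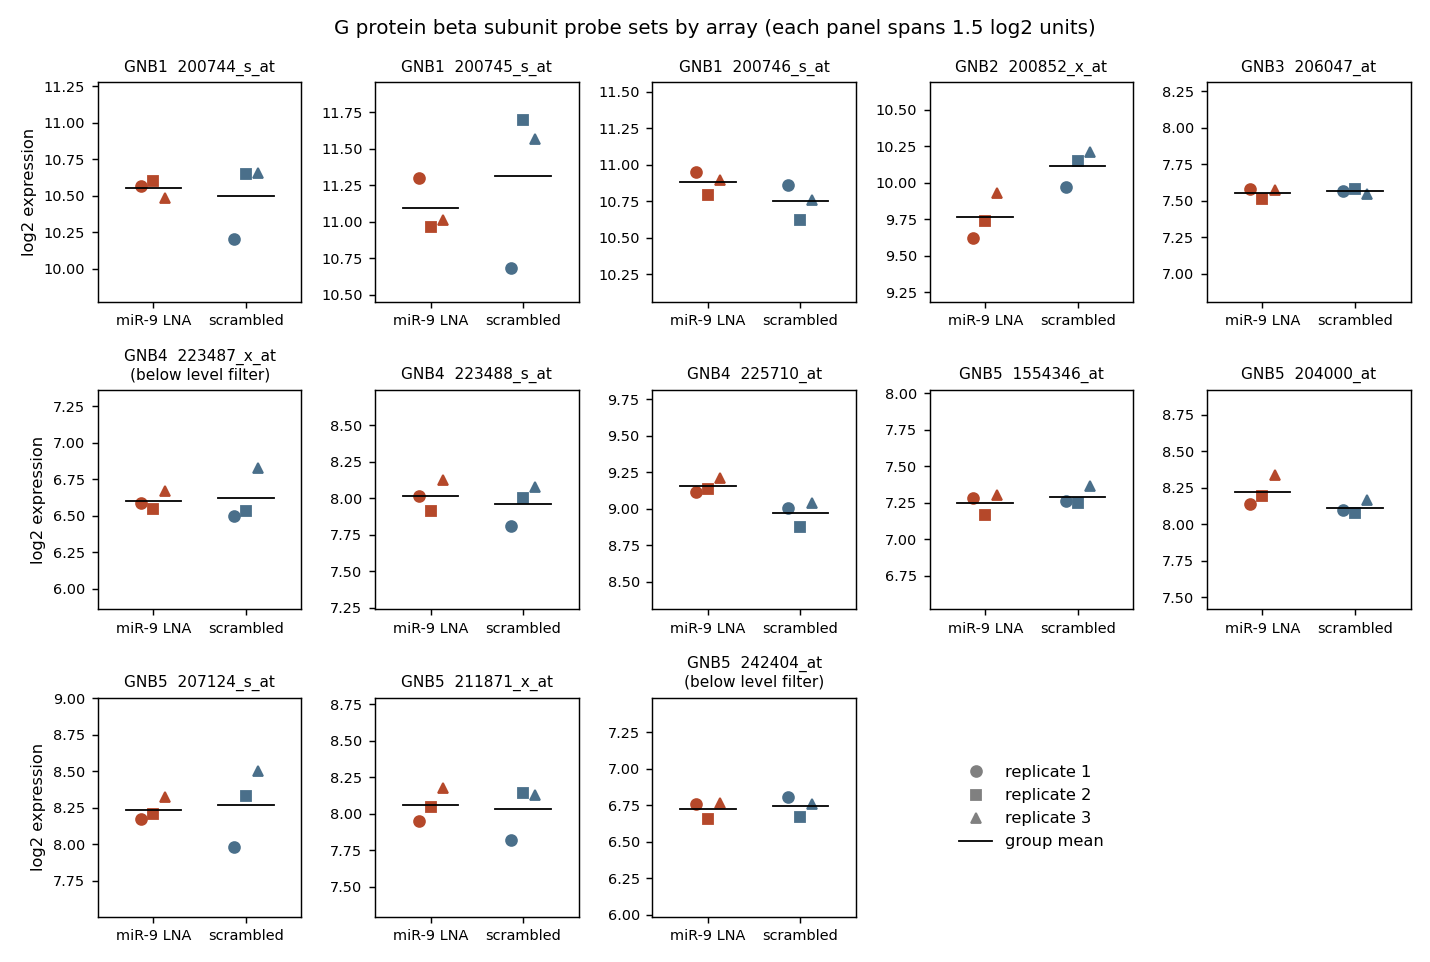
Log2 expression of the 13 beta subunit probe sets on each array, miR-9 LNA left of scrambled LNA in every panel, with a marker shape for each replicate number and the group mean as a bar. Each panel spans the same height, the groups separate at GNB2 200852_x_at and GNB4 225710_at, and scrambled replicate 1 lies far below its group at GNB1 200744_s_at and 200745_s_at. Of all tested probe sets, 18.1% separate higher and 3.97% lower.

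GNB2 was read by the single probe set 200852_x_at, whose suffix marks probes that may also bind other transcripts. Its values were 9.62, 9.74 and 9.93 with the miR-9 LNA, against 9.97, 10.15 and 10.21 with the scrambled LNA. The highest miR-9 LNA array and the lowest scrambled array lay 0.04 apart, less than the spread of either group's own arrays. The means were 9.76 ± 0.16 and 10.11 ± 0.12 (SD, n = 3 each), a log2 difference of -0.35 ± 0.10, which is the value that led to the choice of the family. Within the same-numbered arrays the GNB2 differences were -0.35, -0.41 and -0.28. As the groups did not overlap, any pairing of the arrays would give differences below 0. Since the RNA came from whole cultures, fewer cells with GNB2 mRNA and less of it per cell cannot be told apart.

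In the deposited values the GNB2 difference was opposite in sign to the median at its level. Among the brightest of 5 equal bins of tested probe sets, to which GNB2 belongs, the median difference was 0.19, and 0.01 after quantile normalization. GNB2 was chosen for its low value in this comparison, so its ranks here restate that choice. Of 12367 genes, each read at its brightest tested probe set, 0 had a lower difference than GNB2. Of all 27307 tested probe sets, 20 lay lower. Without scrambled replicate 1 the GNB2 difference was -0.42, and 15 genes lay lower than it. After quantile normalization, which gives every array the same distribution, GNB2 was at 9.54, 9.67 and 9.83 with the miR-9 LNA and at 10.19, 10.19 and 10.22 with the scrambled LNA. The scrambled arrays then lay closely together, and the difference was -0.52 ± 0.08, with 0 of the 12367 genes lower.

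GNB1, whose protein is the beta subunit of rod transducin and is found in most tissues, was read by 3 bright probe sets. At 200745_s_at GNB1 had 11.30, 10.97 and 11.02 with the miR-9 LNA, against 10.68, 11.70 and 11.57 with the scrambled LNA. Scrambled replicate 1 was the lowest and the other scrambled arrays the highest of the 6. The difference there was -0.22 ± 0.25 (limma adjusted p = 0.680). It was -0.54 without scrambled replicate 1, -0.034 without scrambled replicate 2 and -0.097 without scrambled replicate 3, so single scrambled arrays set its size. At 200744_s_at GNB1 had 10.57, 10.60 and 10.48, against 10.20, 10.65 and 10.65 with the scrambled LNA, and differed by 0.05 ± 0.12 (limma adjusted p = 0.864). Its sign turned without scrambled replicate 1, to -0.10.

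The third GNB1 probe set, 200746_s_at, had 10.95, 10.80 and 10.90 with the miR-9 LNA, against 10.86, 10.63 and 10.76 with the scrambled LNA. The groups overlapped. Each miR-9 LNA array exceeded its same-numbered scrambled array, and after quantile normalization 2 of 3 did. How many of all tested probe sets do so was not counted, and nothing is read from it. The difference was 0.13 ± 0.08 (limma adjusted p = 0.467), against a median of 0.19 in the bin of probe sets at its level. Over the 6 arrays, which share group and normalization, 200745_s_at correlated with 200744_s_at at a Pearson r of 0.82 and with 200746_s_at at -0.62. After quantile normalization all 3 GNB1 differences were below 0, at -0.14, -0.41 and -0.07 for 200744_s_at, 200745_s_at and 200746_s_at, and their 95% intervals each held 0.

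**Figure D2:**
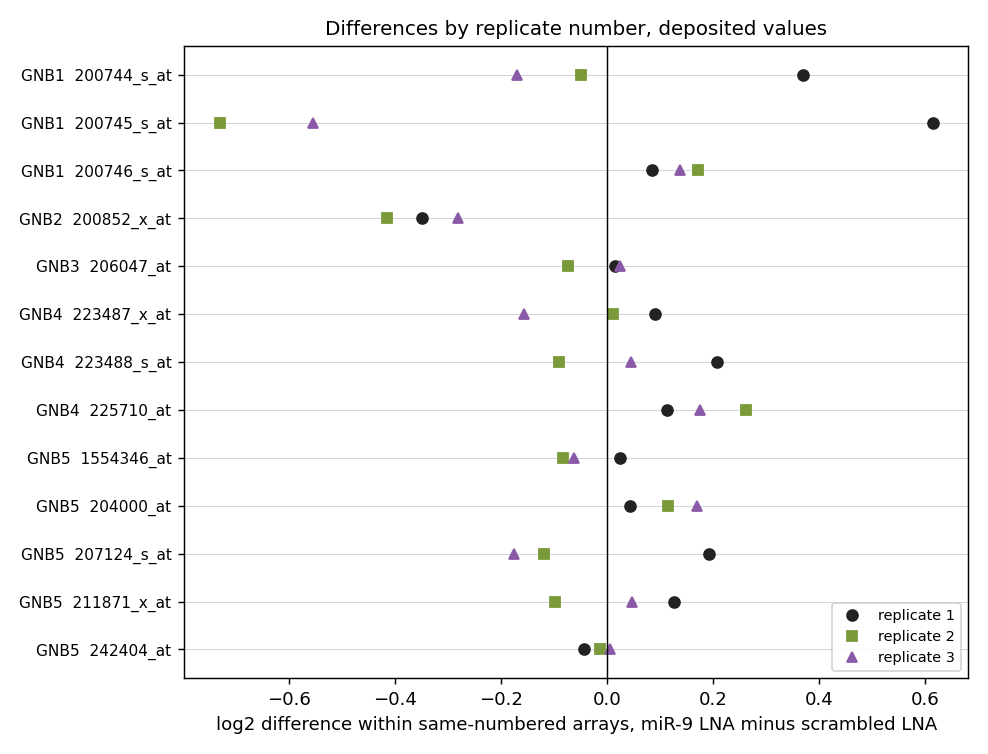
Log2 difference within same-numbered arrays, miR-9 LNA minus scrambled LNA, for each beta subunit probe set, 1 marker for each replicate number. All 3 markers lie below 0 for GNB2 and above 0 for GNB1 200746_s_at, GNB4 225710_at and GNB5 204000_at, and replicate 1 opposes replicates 2 and 3 at GNB1 200744_s_at and 200745_s_at. How many of all tested probe sets have all 3 on 1 side was not counted. After quantile normalization 2 of 3 differences were above 0 at GNB1 200746_s_at, GNB4 225710_at and GNB5 204000_at.

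GNB3, the beta subunit of cone transducin, differed little. Its only probe set, 206047_at, read 7.58, 7.51 and 7.57 with the miR-9 LNA, against 7.56, 7.58 and 7.55 with the scrambled LNA. The difference was -0.01 ± 0.06 (limma adjusted p = 0.936), with a 95% interval from -0.14 to 0.12.

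GNB4 encodes a beta subunit close in sequence to GNB1. At its brightest probe set, 225710_at, it had 9.12, 9.13 and 9.21 with the miR-9 LNA, against 9.00, 8.87 and 9.04 with the scrambled LNA. The groups did not overlap, and the difference was 0.18 ± 0.07 (limma adjusted p = 0.316, unadjusted p = 0.0290). The median difference of the bin of probe sets at its level was 0.14, and 20.4% of all tested probe sets lay higher than GNB4 at this probe set. After quantile normalization the groups overlapped and the difference was 0.05 ± 0.08. GNB4 probe set 223488_s_at gave 0.05 ± 0.09 (limma adjusted p = 0.791), and -0.02 without scrambled replicate 1. GNB4 probe set 223487_x_at, below the filter, read 6.50 to 6.83 over the 6 arrays and differed by -0.02 ± 0.09, and by -0.08 without that array.

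GNB5, the beta subunit that binds R7 RGS proteins, was read by 5 probe sets of lower signal. At 204000_at it had 8.14, 8.19 and 8.34 with the miR-9 LNA, against 8.10, 8.08 and 8.17 with the scrambled LNA. Each miR-9 LNA array exceeded its same-numbered scrambled array, and after quantile normalization 2 of 3 did, again without a count over all tested probe sets. The groups overlapped, and the difference was 0.11 ± 0.07 (limma adjusted p = 0.488). At 207124_s_at the GNB5 difference was -0.03 ± 0.13 (limma adjusted p = 0.909), and it was -0.18 without scrambled replicate 1. At 211871_x_at GNB5 differed by 0.03 ± 0.11, and by -0.08 without that array. These 2 probe sets correlated over the 6 arrays at a Pearson r of 0.88, and scrambled replicate 1 was lowest at both. GNB5 probe set 1554346_at, whose mean of 7.27 lay close to the filter, differed by -0.04 ± 0.07. Probe set 242404_at, below the filter, differed by -0.02 ± 0.06, turning to 0.01 without scrambled replicate 1.

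Of the 11 tested beta subunit probe sets, 6 had a difference above 0 and 5 below, with a median of 0.03, against 66.9% above 0 and a median of 0.06 over all tested probe sets. With limma, 0 beta subunit probe sets and 0% of all tested probe sets passed an adjusted p of 0.05. At an unadjusted p under 0.05 limma gave 1 beta subunit probe set higher (GNB4 225710_at) and 1 lower (GNB2), against 13.8% higher and 0.626% lower over all tested probe sets. The groups were also free of overlap for GNB4 225710_at and GNB2, against 18.1% of all tested probe sets higher without overlap and 3.97% lower without overlap. GNB2 was chosen by this comparison, so these shares are no measure of it, before or after quantile normalization. After quantile normalization 3 beta subunit probe sets lay above 0 and 8 below, with a median of -0.03 against 0.003 over all tested probe sets. Limma then called 0 of the 11 and 0% of all tested probe sets at an adjusted p of 0.05. Of the 11, 1 had an unadjusted p under 0.05, GNB2, as its choice had fixed, against 2.38% of all tested probe sets higher and 2.17% lower. GNB2 was also the 1 probe set without overlap between the groups, against 5.97% higher and 5.73% lower.

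**Figure D3:**
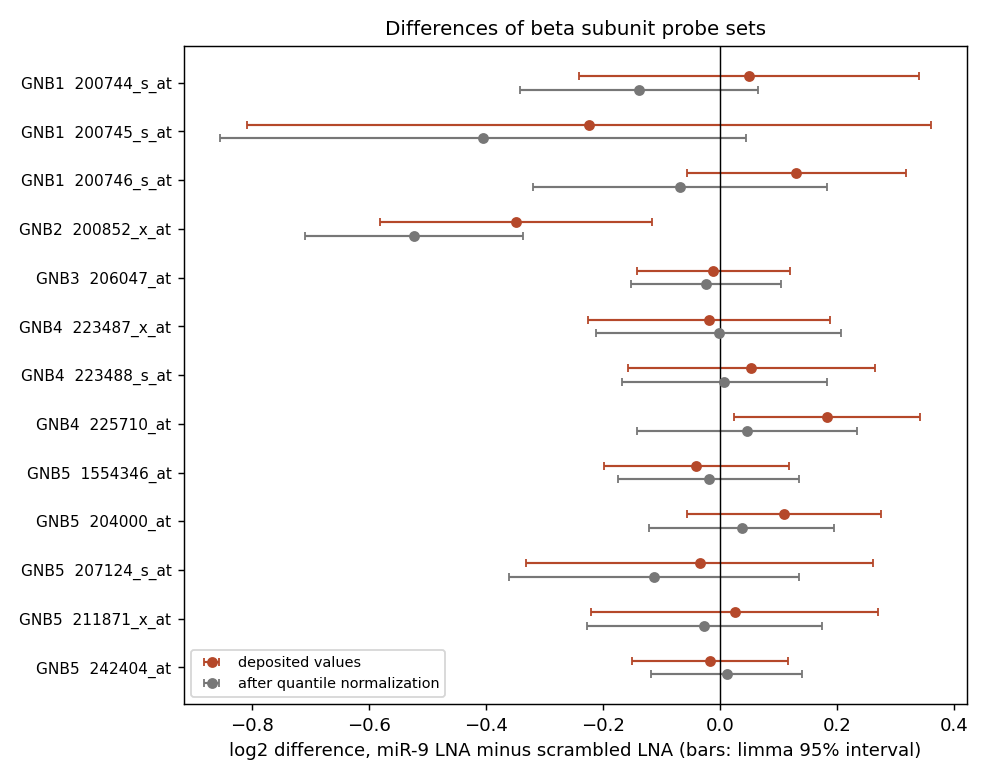
Log2 difference of each beta subunit probe set with its limma 95% interval as deposited and after quantile normalization, miR-9 LNA minus scrambled LNA. GNB2, by whose value the family was chosen, is at -0.35 and -0.52, GNB4 225710_at is at 0.18 and 0.05, and GNB1 200745_s_at has the widest intervals.

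The ratio of GNB2 to another beta subunit on the same array removes any shift that both probe sets share, and shows unequal change only. The log2 ratio of GNB2 to GNB1 200746_s_at was -1.33, -1.06 and -0.97 with the miR-9 LNA, against -0.89, -0.47 and -0.55 with the scrambled LNA. All 3 miR-9 LNA arrays lay below the scrambled ones, by a mean of -0.48. Against GNB1 200744_s_at the ratio differed by -0.40, also without overlap. Against GNB1 200745_s_at it differed by -0.12, the groups overlapped, and the difference was between -0.30 and 0.12 when any 1 array was left out. Against the other 9 probe sets, of which GNB4 223487_x_at and GNB5 242404_at lay below the level filter, the ratio differed by -0.53 to -0.31, and by -0.57 to -0.41 after quantile normalization. The groups overlapped for the ratio to GNB5 242404_at and not for the other 8. All of these ratios hold the same GNB2 values, so they are not separate observations. GNB2 was chosen for its low value in this comparison, so lower ratios and groups without overlap largely follow from that choice. No share over other genes is given for them, and nothing is read from them.

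The stretch before the start of transcription is shown for GNB2 and GNB4. In the deposited values the GNB2 groups separated lower, as its choice had fixed. The GNB4 groups separated higher at its brightest probe set only, and overlapped there after quantile normalization. No contrast between the genes is read from this. Capitals mark CpG dinucleotides, the sites of DNA methylation. The windows are the 250 bases before the RefSeq start in GRCh38.p14, 5′ to 3′ on the gene's strand: chr7:100673490-100673739, plus strand, for GNB2, and chr3:179451471-179451720, minus strand, for GNB4.
GNB2: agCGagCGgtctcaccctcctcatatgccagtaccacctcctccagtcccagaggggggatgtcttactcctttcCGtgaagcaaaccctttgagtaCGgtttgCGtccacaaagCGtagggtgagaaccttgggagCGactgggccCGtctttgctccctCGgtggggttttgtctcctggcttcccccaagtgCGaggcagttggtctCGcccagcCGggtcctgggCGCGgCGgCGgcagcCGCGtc
GNB4: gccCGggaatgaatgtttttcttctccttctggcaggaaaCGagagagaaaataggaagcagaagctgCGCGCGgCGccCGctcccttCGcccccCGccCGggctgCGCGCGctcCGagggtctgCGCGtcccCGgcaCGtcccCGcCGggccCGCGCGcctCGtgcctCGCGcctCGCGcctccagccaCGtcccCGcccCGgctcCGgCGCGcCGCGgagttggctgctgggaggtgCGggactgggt
The GNB2 window holds 18 CG and is 63.2% G or C, and the GNB4 window holds 37 and is 73.6%. The GNB1 window holds 42. Over 35116 windows of this length, 93.9% held at least 1 CG and the median was 11. At least 18 were found in 36.8% of them, at least 37 in 1404 windows and at least 42 in 483. GNB1, GNB2, GNB4 and GNB5 matched the table of promoters. No chromatin or methylation was measured, so these letters are a description of the genes and not of the response.

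Other genes of the pathway were read at the brightest tested probe set of each, in lists chosen with earlier results of these data known. Over all 12367 genes, 70.0% lay above 0 in the deposited values, with a median difference of 0.08, and 49.6% after quantile normalization. No listed gene passed a limma adjusted p of 0.05, in the deposited values or after quantile normalization.

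Gamma subunits, the partners of beta, gave 5 of 7 tested genes above 0 and a median of 0.09, and after quantile normalization 3 of 7 and a median of -0.008. GNG2 had 11.75, 11.57 and 11.49 with the miR-9 LNA, against 11.54, 11.44 and 11.30 with the scrambled LNA, and differed by 0.17 ± 0.09. The differences were 0.16 ± 0.09 for GNG5 and 0.14 ± 0.12 for GNG10, and they were 0.10 and 0.02 for GNG5 and GNG10 without scrambled replicate 1. Alpha subunits gave 5 of 9 above 0, with a median of 0.05. At an unadjusted limma p under 0.05, 4 of them were higher and 0 lower, against 2155 higher and 74 lower among 12367 genes. GNAS, which encodes the alpha subunit that stimulates adenylyl cyclase, had 12.90, 12.73 and 12.84 with the miR-9 LNA, against 12.60, 12.48 and 12.63 with the scrambled LNA. Its groups did not overlap, and the difference was 0.25 ± 0.07 (limma adjusted p = 0.296). GNA13, an alpha subunit of another class, differed by 0.25 ± 0.08 and GNAI3, an inhibitor of adenylyl cyclase, by 0.25 ± 0.09. After quantile normalization the 3 differences were 0.08, 0.06 and 0.06, and the alpha list gave 4 of 9 above 0, with a median of -0.03. At an unadjusted limma p under 0.05, 0 alpha genes were then higher and 2 lower, against 233 higher and 289 lower among 12367 genes. The 2 were GNAO1 and GNAI2, named after their values were seen.

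The list of G protein folding and assembly factors gave 9 of 9 above 0, with a median of 0.18. After quantile normalization it gave 8 of 9, with a median of 0.05. They are mostly subunits of the chaperonin CCT, and RIC8B is also counted. The CCT subunits belong to the brightest of the 5 bins, whose median difference was 0.19, and 0.01 after quantile normalization. CCT6A differed by 0.24 ± 0.10, CCT5 by 0.26 ± 0.11 and CCT3 by 0.17 ± 0.08, and by 0.13, 0.13 and 0.10 without scrambled replicate 1. PDCL, the cochaperone that works with CCT on beta, differed by 0.07, by 0.01 without scrambled replicate 1 and by -0.02 after quantile normalization.

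Of the R7 RGS proteins and their anchors, partners of GNB5, 1 of 6 was tested. RGS11 differed by -0.09 ± 0.07 (limma adjusted p = 0.526), and by -0.04 without scrambled replicate 1. Other RGS proteins, which speed GTP hydrolysis by alpha subunits, gave 5 of 9 above 0 with a median of 0.05. RGS2 differed by 0.26 ± 0.18, RGS13 by 0.20 ± 0.18 and RGS10 by 0.15 ± 0.09. Without scrambled replicate 1 these differences were 0.03, 0.02 and 0.05.

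The list of beta-gamma effectors and receptor kinases also holds genes that act further downstream, such as ITPR1. It gave 13 of 23 above 0 and a median of 0.01, and after quantile normalization 12 of 23 and a median of 0.006. At an unadjusted limma p under 0.05, 3 were higher and 1 lower, against 2155 higher and 74 lower among 12367 genes. After quantile normalization 1 was higher and 2 lower, against 233 higher and 289 lower. PIK3CB, the phosphoinositide 3-kinase catalytic subunit that beta-gamma can activate, had 9.35, 9.27 and 9.22 with the miR-9 LNA, against 8.90, 9.04 and 9.01 with the scrambled LNA. Its groups did not overlap, and the difference was 0.30 ± 0.07 (limma adjusted p = 0.296), and 0.16 after quantile normalization. PIK3CG, the gamma kinase of white blood cells, differed by 0.22 ± 0.07, and by 0.03 after quantile normalization. ITPR1, a calcium channel of the endoplasmic reticulum downstream of phospholipase C, differed by 0.19 ± 0.07 and by 0.009. Of the WD repeat relatives of the beta subunits, GNB1L alone was tested and differed by -0.11 ± 0.07.

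**Figure D4:**
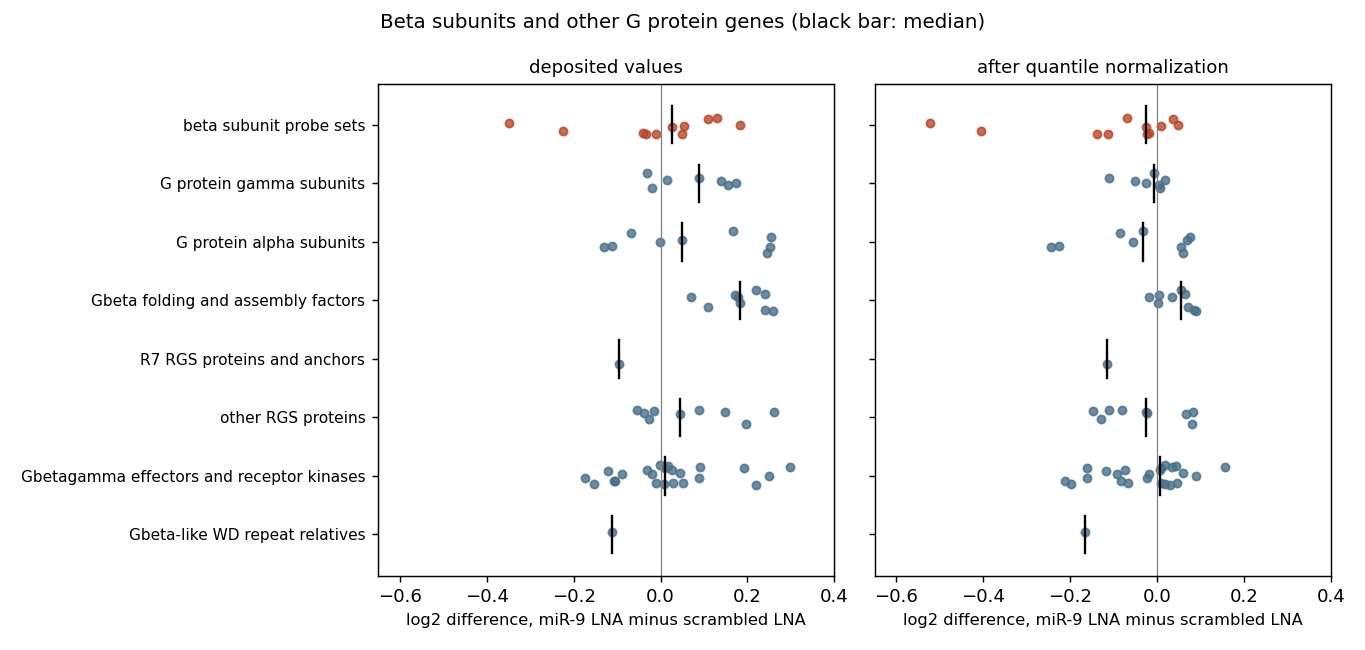
Log2 difference, miR-9 LNA minus scrambled LNA, of the 11 tested beta subunit probe sets and of other G protein genes at their brightest tested probe set, in the deposited values (left) and after quantile normalization (right), with the median of each row as a bar. GNB2 is the lowest point of both panels, and the medians of the alpha, gamma and other RGS rows lie above 0 on the left and below 0 on the right.

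Among 22454 named tested probe sets of other genes, those most like GNB2 over the 6 arrays were C16orf86 (Pearson r = 0.993), CHPF2 (0.986) and CA12 (0.978). After quantile normalization the r values of C16orf86, CHPF2 and CA12 with GNB2 were 0.980, 0.987 and 0.707. CHPF2, an enzyme of chondroitin synthesis, differed by -0.16 in the deposited values and by -0.28 after quantile normalization. C16orf86 and CA12 had means of 7.43 and 7.25 with the miR-9 LNA, close to the level filter. Each differed by only -0.08, and by -0.07 and -0.06 after quantile normalization. The probe sets most like GNB1 200745_s_at were those of AKAP13 and ECPAS (0.997 each) and SRGAP2 (0.995). All of these points share 6 arrays and their groups, and the likeness is the best of many, so it is a description only.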

How the data were processed

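The authors deposited log2 expression for 54675 probe sets of 6 arrays, and the submitters' processing notes name affy and RMA. Versions and options are not given in the sources used here. Array medians were not identical as deposited. The 62 control probe sets were dropped. The groups were compared with lmFit and eBayes of limma 3.58.1 (R 4.3.3), two-sided, with Benjamini-Hochberg adjustment over the 27307 tested probe sets. Members below the level filter were read from the fit without it. Intervals are limma's, at 95%, and are not adjusted. The number of arrays limits the precision. Gene names came from the platform annotation.

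The members, lists and alternatives were chosen with earlier results of these data known. The rule named every member probe set, the 3 genes of smallest p in each pathway list, and the 3 probe sets most like the brightest of GNB2 and of GNB1. Deviations from the group means correlated between arrays of the same replicate number at r = 0.231, 0.193 and 0.634 across probe sets, and at -0.429 to 0.168 between other numbers. Only replicate 3 stood well apart, so the basis for pairing replicates 1 and 2 is weak. The pairing comes from the data and not from the labels. The code of the fit was run on simulated data with independent errors, no shift of whole arrays and changes larger than any beta subunit difference. Such a run checks the code and does not measure how the fit performs on these arrays. Tables and plots were made in Python 3.11.15 with matplotlib 3.10.9.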

Additional observations from a re-analysis of the deposited data

How the results depend on the processing

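Over 21 alternatives (no filter, a filter at log2 8, quantile normalization, median centring, eBayes with trend, array weights, a 3'-minus-5' covariate, the replicate block, the block after quantile normalization, and each array left out before or after quantile normalization), limma gave an adjusted p under 0.05 to 0 beta subunits, 0 listed genes and 0 probe sets of any gene, and the lowest adjusted p of a beta subunit other than GNB2 was 0.169. GNB2 and GNB1 200745_s_at kept their sign in all of these, and the other 11 beta subunit probe sets changed sign in at least 1. As the GNB2 groups did not overlap, leaving out 1 array of the deposited values could not turn its sign. GNB2 ranged from -0.43 to -0.28 with 1 array left out, and from -0.60 to -0.44 after quantile normalization with 1 left out. GNB1 200745_s_at ranged from -0.54 to -0.034 with 1 array left out, and from -0.66 to -0.24 after quantile normalization with 1 left out. The replicate block (pairing) cannot move a difference in this balanced design, GNB2's -0.35 included, and changes only its error. With it limma gave 5944 probe sets higher and 274 lower at an unadjusted p under 0.05, against 3755 and 171 without it. With 1 array left out these counts ranged from 2300 to 4164 and from 42 to 865. After quantile normalization, with or without the block, GNB1 turned to -0.14 (200744_s_at) and -0.069 (200746_s_at), and GNB5 to -0.026 (211871_x_at) and 0.012 (242404_at). Array weights turned GNB1 200744_s_at to -0.045, GNB4 223488_s_at to -0.0047, GNB5 211871_x_at to -0.046 and GNB5 242404_at to 0.0025. Median centring turned GNB3 to 0.016, GNB4 223487_x_at to 0.0082 and GNB5 242404_at to 0.0095, and the 3'-minus-5' covariate turned GNB5 207124_s_at to 0.0016. The causes were not tested. With 1 array left out, before or after quantile normalization, the ranges were -0.23 to 0.13 (GNB1 200744_s_at), -0.16 to 0.19 (GNB1 200746_s_at), -0.039 to 0.01 (GNB3), -0.080 to 0.10 (GNB4 223487_x_at), -0.043 to 0.11 (GNB4 223488_s_at), -0.03 to 0.22 (GNB4 225710_at), -0.067 to 0.024 (GNB5 1554346_at), -0.0088 to 0.15 (GNB5 204000_at), -0.23 to 0.080 (GNB5 207124_s_at), -0.11 to 0.081 (GNB5 211871_x_at) and -0.054 to 0.051 (GNB5 242404_at).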

Other observations

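Inhibitory alpha subunits and receptor kinases gave quantile-normalized differences of both signs, and the genes here were picked with their values already seen. GNAI2, an inhibitory alpha subunit, read 8.56 ± 0.06 under the miR-9 LNA, against 8.67 ± 0.06 under the scrambled LNA (SD, n = 3 each). Its difference was -0.11 ± 0.06 (limma adjusted p = 0.440), and -0.23 after quantile normalization. GNAO1, a related alpha subunit, differed by -0.13 and by -0.24. Of the other inhibitory alpha subunits tested, GNAI3 differed by 0.06 and GNAZ by 0.07 after quantile normalization. GRK2, the receptor kinase that beta-gamma recruits to the membrane, differed by -0.11 ± 0.06 (limma adjusted p = 0.458), and by -0.21 after quantile normalization. The related kinase GRK3 differed by 0.09, by 0.03 without scrambled replicate 1, and by 0.03 after quantile normalization. GRK6, another receptor kinase, differed by 0.01, by 0.02 without scrambled replicate 1, and by -0.16 after quantile normalization. Its sign thus turned with the normalization. No gene named here passed the threshold in either form of the values.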
